A study of Mus musculus with 48 samples.

Results

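RNA from the hippocampus of stressed mice given esomeprazole was compared with RNA from the hippocampus of non-stressed mice given the same drug. Titles naming stress, PPI and HPC (hippocampus) chose the 6 stressed libraries, and titles naming non-stress with the same other terms chose the 6 non-stressed ones, 12 of the 48 libraries of the study. All mice were male C57BL/6, an inbred laboratory strain, aged 63 to 91 postnatal days, and no allele or transgene is given for any group. Each mouse spent 3 days in either a control or a stress environment, whose form the labels do not describe. It received esomeprazole by injection into the abdominal cavity 60 minutes after each session, at 2 mg/kg per the sample labels, where the treatment protocol prints 2 g/kg. The mice were killed for tissue 12 hours after the final dose. The study also holds vehicle-treated mice under both environments and the frontal cortex of all groups, with 6 libraries in each of 8 groups.

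Esomeprazole is a proton pump inhibitor, which blocks the gastric H+/K+ ATPase and so lowers acid secretion in the stomach. Stress raises corticosterone, the main glucocorticoid of mice, which enters the brain and binds the glucocorticoid receptor. The hippocampus is rich in that receptor, and the bound receptor moves to the nucleus and switches on a set of target genes, among them Fkbp5, Sgk1 and Tsc22d3. The hippocampus is built of dentate granule cells and of CA3 and CA1 pyramidal cells, while the dopamine receptors Drd1 and Drd2 and the signalling regulator Rgs9 mark the medium spiny neurons of the striatum, a region that lies apart from it.

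The 12 libraries held 27.7 to 42 M reads assigned to genes, with a median of 36.6 M. The share of reads outside annotated genes ranged from 6.12% in non-stressed library 4 and 11.5% in stressed library 5 to 20.6%, and those 2 libraries are the only ones of the 12 below 12%. Values below are normalised reads, that is whole reads scaled for library size by TMM. A log2 fold change is the stressed minus the non-stressed mean of log2(normalised reads + 1), with the standard error from limma, and understates the change of genes with few reads.

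Striatal markers were many times higher in 4 of the 6 stressed libraries than in any non-stressed library. Drd2 had 42.8 at the lowest, 57.0 at the median and 117 at the highest in non-stressed libraries, against 75.8, 1141 and 2144 in stressed libraries. Stressed libraries 1, 2, 3 and 4 stood at 1406, 2144, 1942 and 877, and libraries 5 and 6 at 136 and 75.8, the latter inside the non-stressed range. Drd1 had 60.3 at the lowest, 210.1 at the median and 238 at the highest in non-stressed libraries, against 144, 1845 and 4086 in stressed libraries. The same 4 stressed libraries were high, and libraries 5 and 6 were again inside the non-stressed range. Rgs9 had 559 at the lowest, 1068 at the median and 1189 at the highest in non-stressed libraries, against 877, 6434 and 15221 in stressed libraries, with the same 4 libraries high. A striatal score, the mean of the log2 values of these 3 genes after subtracting each gene's mean over the 24 hippocampal libraries, lay between -1.27 and -0.37 in non-stressed libraries. It was 3.08, 3.74, 3.02 and 2.36 in stressed libraries 1 to 4 and -0.56 and -0.60 in libraries 5 and 6. The summed reads of the 23 striatal genes tested were 30040 to 65988 in non-stressed libraries, 89723 to 201680 in stressed libraries 1 to 4 and 30708 to 42007 in libraries 5 and 6.

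**Figure D1:**
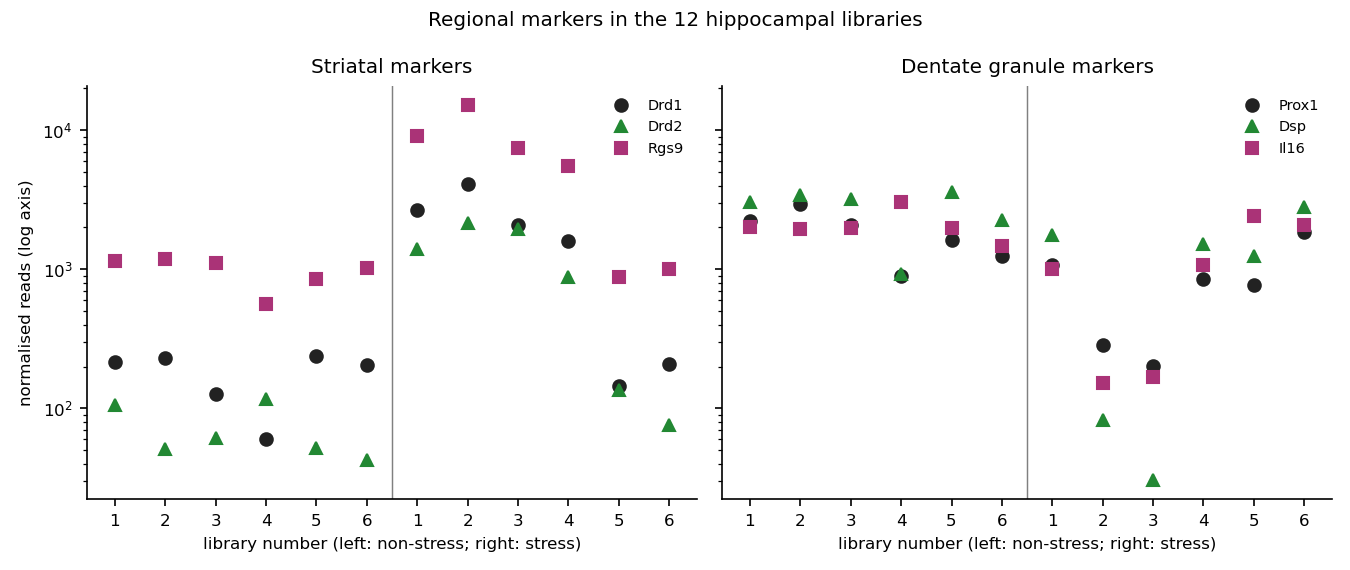
Normalised reads on a log axis for 3 striatal markers (left) and 3 dentate granule markers (right) in each of the 12 libraries, with the 6 non-stressed libraries left of the line and the 6 stressed libraries right of it. Stressed libraries 1 to 4 are high in all 3 striatal markers, and stressed libraries 2 and 3 are the lowest in all 3 dentate markers.

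Stressed libraries 2 and 3 also went against their tissue label in the markers of hippocampal neurons. Dsp, which encodes the junction protein desmoplakin and in the hippocampus marks dentate granule cells, had 82.3 and 30.4 normalised reads there, 1762, 1526, 1251 and 2788 in the other stressed libraries and 927 to 3583 in non-stressed ones. Prox1, a transcription factor of granule cells, had 285 and 203 there against 893 to 2944 in non-stressed libraries. Iyd, a CA3 marker, had 3.43 and 4.61 there against 122 to 246. In these genes libraries 2 and 3 lay far below each of the other 10 libraries. The cholinergic and hypothalamic markers Lhx8 and Nkx2-1 were highest in stressed libraries 2 and 4, at 482 and 296 for Lhx8 and 319.7 and 258 for Nkx2-1, against at most 3.71 and 31.3 in non-stressed libraries. Choroid plexus markers were uneven in both groups: the median log2 fold change of 14 genes was 0.52 with limma but -0.27 with edgeR and with DESeq2, and their summed reads ran from 6878 to 280850 in non-stressed and from 5614 to 202590 in stressed libraries. In such bulk samples fewer cells of a type and less RNA per cell cannot be told apart.

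Results are therefore given in the comparison of all 12 libraries and with the striatal score as a covariate, and for the main genes also without the 5 hippocampal libraries whose score exceeded every non-stressed one (stressed libraries 1 to 4 and 1 stressed vehicle library). Because no non-stressed library had a high score, stress and the score overlap in this design. The fit without those libraries rests on 2 stressed libraries, of which library 5 is also the one with few reads outside genes.

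No gene passed the threshold between stressed and non-stressed mice. Of 15062 genes tested, 0% had a Benjamini-Hochberg adjusted p under 0.05 with limma, and edgeR's quasi-likelihood test likewise called 0, with 836 genes (5.55%) at an unadjusted p under 0.05. At an unadjusted p under 0.05 limma counted 861 genes (5.72%), 485 higher (3.22%) and 376 lower (2.5%) in stressed mice. That split depended on the scaling and the tool, with 376 higher and 517 lower by median-of-ratios, 375 and 515 by the deposited scaling, and 588 and 248 with edgeR. DESeq2 called 68 genes (0.452%), 55 higher and 13 lower. With the striatal score as a covariate limma counted 129 genes (0.856%) at an unadjusted p under 0.05 and called none, and without the striatal-high libraries it counted 256 of 15116 (1.69%) and called none. Without stressed libraries 2 and 3 alone it counted 219 of 15089 (1.45%), and with the no-feature share beside the score 1249 (8.29%), again calling none. With 2 surrogate variables in the fit 996 genes (6.61%) were called. The labels do not say whether mice shared a cage or a dissection day. The p-values therefore measure only the spread between libraries, part of which may be technical. In limma that spread is pooled over all 24 hippocampal libraries, vehicle ones included. With only the 12 libraries of this comparison limma counted 628 genes at an unadjusted p under 0.05 and called none.

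Most of the 861 differences shrank once the striatal score was in the fit. Of these genes, 661 (76.8%) had under 50% of their log2 fold change left, and 556 kept their sign. The 861 were picked by their p in the fit without the score. The same share over all genes was not computed, so the 76.8% has no background to be set against. The median of the 485 higher genes went from 0.69 to 0.12 and that of the 376 lower genes from -0.72 to -0.04. At an unadjusted p under 0.05 and with the same sign, 46 genes were left with the covariate and 43 without the striatal-high libraries, and 22 genes met both. Of DESeq2's 55 higher calls the median went from 2.05 to -0.12, and 2 stayed at an unadjusted p under 0.05, Casq2 and Alox12. Its 13 lower calls all kept their sign, and 5 stayed, Lao1, Plin4, Lyve1, Map3k6 and Eva1a. In 36 genes (0.239%) the groups did not overlap, 26 with every stressed library above (0.173%) and 10 with every one below (0.0664%). With so few libraries per group some genes separate completely by chance, and whether 36 exceeds that number was not tested. A lack of overlap, here and below, therefore describes the values of a gene or list and is no evidence of a difference by itself.

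**Figure D2:**
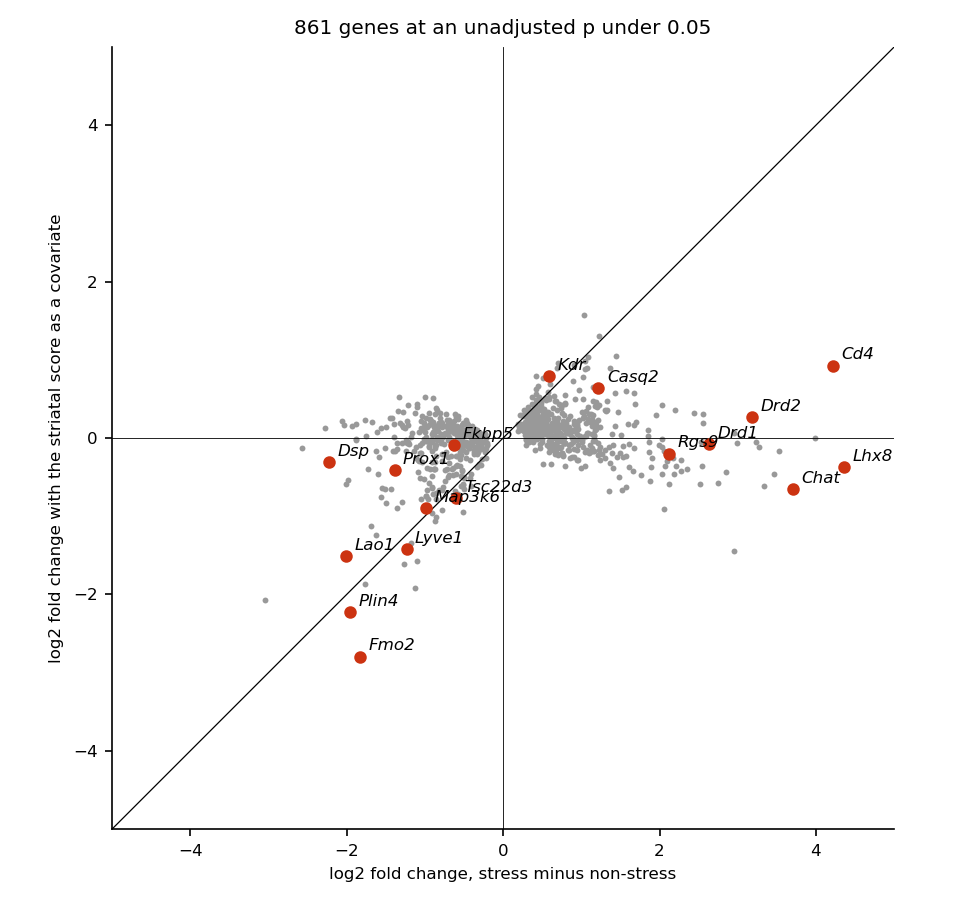
Log2 fold change of stressed minus non-stressed libraries without (x axis) and with (y axis) the striatal score as a covariate, for the 861 genes at an unadjusted p under 0.05, with the line of equal values. Drd1, Drd2 and Rgs9 make up the score and so lie near 0 on the y axis by construction; Chat and Lhx8 lie below 0 there, while Plin4, Lao1, Map3k6, Tsc22d3 and Lyve1 lie near the line.

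Targets of the glucocorticoid receptor had, as a list, a lower median in stressed mice with and without these adjustments. Of 42 genes of a glucocorticoid response list that were tested, 37 had a lower mean in stressed mice, as did 8642 of all 15062 genes. An unadjusted p under 0.05 was reached by 16 lower members and 1 higher one, where 2.5% and 3.22% of all genes did so. The list's median log2 fold change was -0.39, against -0.04 over all genes, and it was -0.31 with the striatal covariate, -0.32 without the striatal-high libraries and -0.31 without libraries 2 and 3. With the covariate 8 members were lower and 0 higher at that p, against 0.465% and 0.392% of all genes. The list score, the members' mean log2 value relative to the mean of the 12 libraries, ran from 0.06 to 0.47 in non-stressed and from -0.47 to -0.01 in stressed libraries, so the groups did not overlap. Of 34 lists 2 had scores without overlap, and the other was the astrocyte list of 13 markers, at 0.01 to 0.26 in non-stressed and -0.20 to 0.0021 in stressed libraries. The summed reads of the astrocyte markers were 224720 to 251340 in non-stressed and 165140 to 211410 in stressed libraries, none of the 13 was at 0 in any library, and their part in the glucocorticoid list's difference was not tested. The list was drawn up with earlier results of these data known.

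Tsc22d3 (chrX:140539528-140600659, mm10), which encodes the glucocorticoid-induced leucine zipper, had 2892 at the lowest, 3416 at the median and 3887 at the highest in non-stressed libraries, against 1789, 2221 and 2866 in stressed libraries. Every stressed library was below every non-stressed one, and the closest pair was non-stressed library 3 at 2892 and stressed library 3 at 2866. The log2 fold change of Tsc22d3 was -0.60 ± 0.17 (adjusted p 0.55, limma), -0.77 ± 0.22 with the covariate and -0.68 ± 0.21 without the striatal-high libraries. Plin4 (chr17:56100591-56109803), a coat protein of lipid droplets, had 388 at the lowest, 897 at the median and 1697 at the highest in non-stressed libraries, against 165, 211 and 456 in stressed libraries. The groups overlapped through non-stressed library 4 at 388 and stressed library 4 at 456. The log2 fold change was -1.95 ± 0.43 (adjusted p 0.41, limma), -2.23 ± 0.59 with the covariate and -2.01 ± 0.64 without the striatal-high libraries.

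Map3k6 (chr4:133240818-133252929), a kinase of stress-activated signalling, had 224 at the lowest, 275 at the median and 396 at the highest in non-stressed libraries, against 79.7, 145 and 223 in stressed libraries. The groups did not overlap, although stressed library 5 at 223 almost reached non-stressed library 1 at 224. The log2 fold change was -0.99 ± 0.25, and -0.89 ± 0.34 with the covariate. Sgk1 (chr10:21882184-21999903), the serum- and glucocorticoid-regulated kinase, had 3003 at the lowest, 4516 at the median and 5071 at the highest in non-stressed libraries, against 2521, 2929 and 4093 in stressed libraries. Non-stressed library 4 was low and stressed library 1 was high, so the groups overlapped. For Sgk1 the log2 fold change was -0.50 ± 0.16, -0.51 ± 0.22 with the covariate and -0.59 ± 0.23 without the striatal-high libraries. Galnt15, an enzyme that attaches sugars to proteins, had 63.6 at the lowest, 95.5 at the median and 115 at the highest in non-stressed libraries, against 41.3, 60.5 and 89.4 in stressed libraries, with the 2 lowest values of all in stressed libraries 5 and 6. In Galnt15 the log2 fold change was -0.52 ± 0.21, and it was larger in size with the covariate, at -0.94 ± 0.24.

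Lao1 (chr4:118961578-118968912), an L-amino acid oxidase that was named in the panel but is no member of the list, had few reads and the smallest p of all named lower genes. It had 24.9 at the lowest, 30.3 at the median and 38.3 at the highest in non-stressed libraries, against 2.57, 8.21 and 12.8 in stressed libraries, and every stressed library was far below every non-stressed one, the closest being library 5 at 12.8. The log2 fold change was -2.01 ± 0.38 (adjusted p 0.39, limma), -1.51 ± 0.49 with the covariate and -1.56 ± 0.51 without the striatal-high libraries.

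Fkbp5 (chr17:28399094-28517527), a co-chaperone that holds the glucocorticoid receptor in a state of low affinity, differed from these genes. It had 3254 at the lowest, 3328 at the median and 4141 at the highest in non-stressed libraries, against 1359, 2285 and 3696 in stressed libraries. Stressed libraries 1 to 4 were low, at 2098, 1359, 1497 and 2472, while library 5 at 3696 and library 6 at 3124 stood within or just below the range of non-stressed libraries. Its log2 fold change was -0.63 ± 0.19, but -0.09 ± 0.19 with the covariate and -0.08 ± 0.15 without the striatal-high libraries. Without libraries 2 and 3 it was -0.31 ± 0.15. Bcl6, Zbtb16, Rasd1 and Errfi1, other members of the list, went the same way: their log2 fold changes of -0.65, -1.06, -1.01 and -0.35 became -0.03, -0.09, -0.01 and 0.03 with the covariate. Hif3a, a hypoxia-inducible factor, had -1.27 ± 0.46 and -1.61 ± 0.62. The 1 member that was higher, the growth factor gene Fgf1, had 0.46 ± 0.21, and 0.15 ± 0.27 with the covariate. These 6 members were named after their values were seen. Nr3c1, which encodes the glucocorticoid receptor itself, had 437 normalised reads in non-stressed library 4 and 221 in stressed library 5, against 2224 to 3119 in the other 10 libraries. These are the 2 libraries with few reads outside genes, and the log2 fold change over all 12 was -0.23 ± 0.63.

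**Figure D3:**
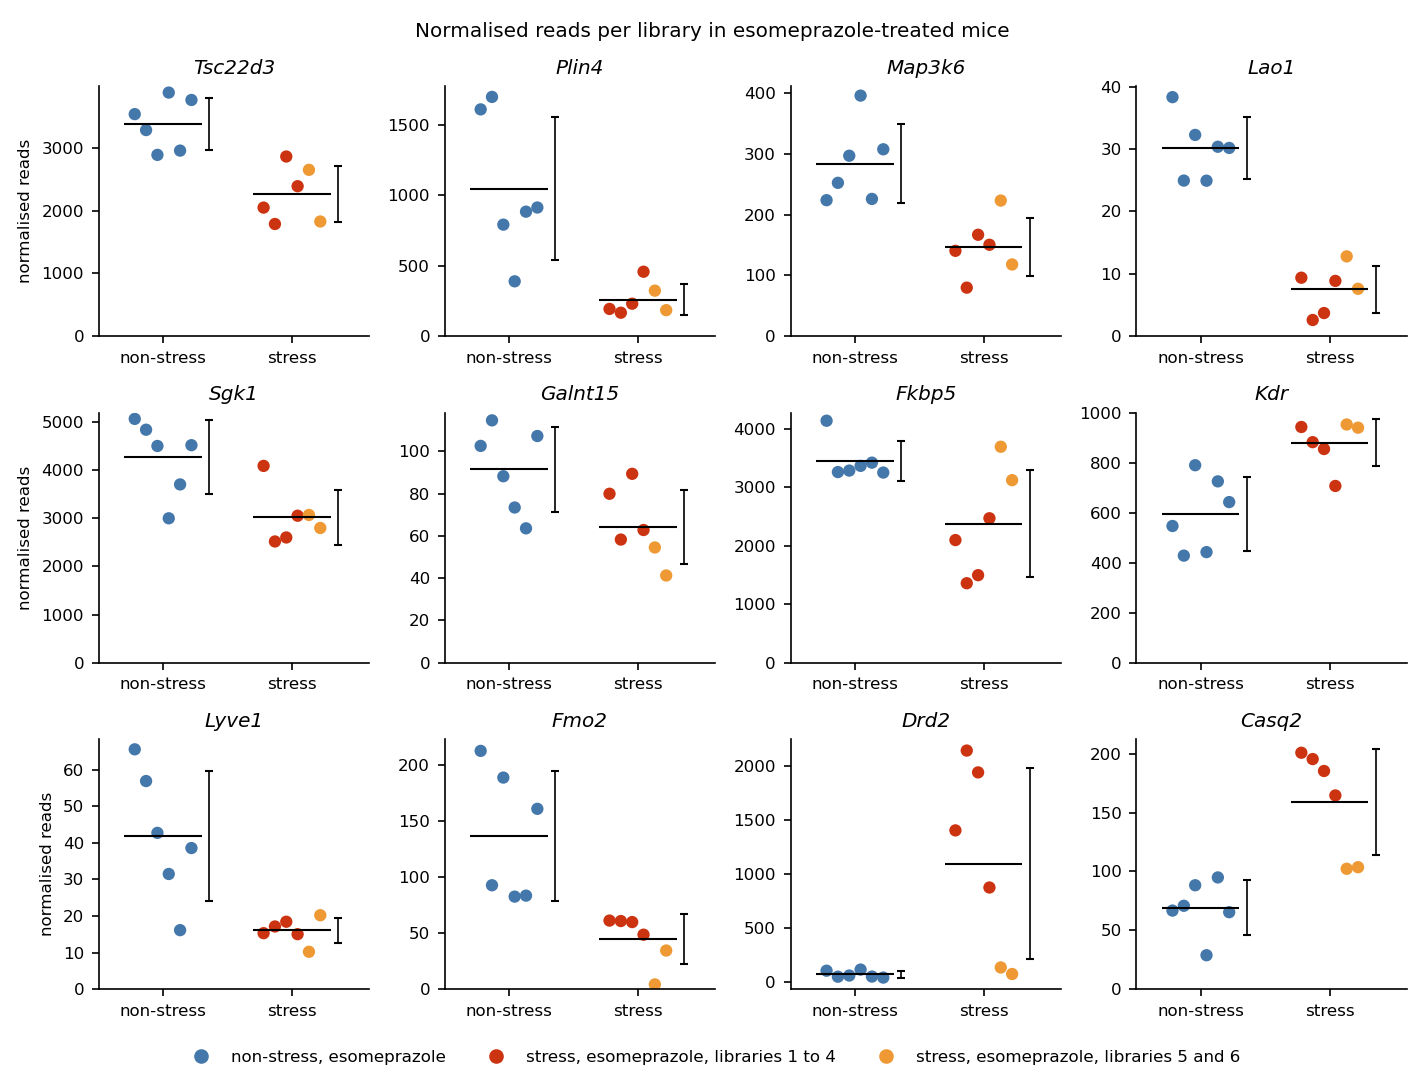
Normalised reads of 12 genes in each non-stressed (blue) and stressed library, with stressed libraries 1 to 4 in red and 5 and 6 in orange; lines are group means and bars 1 SD. In Tsc22d3, Map3k6 and Lao1 the red and orange points lie together below the blue ones, whereas in Fkbp5, Drd2 and Casq2 the orange points lie nearer to the blue ones than the red points do.

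The promoters of 2 of these genes are shown because they hold the letters that the glucocorticoid receptor is known to bind. The windows run from 250 bases before to 50 bases after a start from RefSeq (GRCm38.p6), 5′ to 3′ on the gene's strand. For Map3k6 that start is the first base of the span given above, and for Sgk1 it lies inside the span, which reaches further upstream. Capitals mark the match to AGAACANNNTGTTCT in Sgk1 (chr10:21993640-21993939, plus strand) and to the looser GNACANNNTGTNC in Map3k6 (chr4:133240568-133240867, plus strand). Both strands were searched, and the match starts 189 bases before the start in Sgk1 and 181 bases before it in Map3k6.
Sgk1: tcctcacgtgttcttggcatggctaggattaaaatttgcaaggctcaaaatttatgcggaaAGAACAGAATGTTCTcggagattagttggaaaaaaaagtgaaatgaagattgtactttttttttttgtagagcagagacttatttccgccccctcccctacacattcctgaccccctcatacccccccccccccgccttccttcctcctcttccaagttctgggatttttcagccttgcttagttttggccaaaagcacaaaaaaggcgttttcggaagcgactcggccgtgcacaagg
Map3k6: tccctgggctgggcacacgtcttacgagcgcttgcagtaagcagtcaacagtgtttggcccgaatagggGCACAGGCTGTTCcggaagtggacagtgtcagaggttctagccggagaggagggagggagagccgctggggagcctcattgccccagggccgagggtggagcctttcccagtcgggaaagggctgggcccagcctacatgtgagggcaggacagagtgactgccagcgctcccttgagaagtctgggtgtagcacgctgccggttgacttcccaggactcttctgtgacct

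The full 15-base motif lies in 3 of 32851 RefSeq promoter windows of this length (0.00913%), 1 of them that of Sgk1. The looser motif, which the full one contains, lies in 156 windows (0.475%). Of the 42 list genes, 33 had a window, with 48 windows between them. The looser motif lay in 5 of these 48 windows, which belong to 4 genes: Fam107a, Map3k6, Mt1 and Sgk1. A match of letters is a description of the window and not a site, and a window without one says nothing about the receptor's binding elsewhere.

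Kdr, a gene of blood vessels, and Lyve1, a gene of macrophages at the brain's borders, had similar differences in the fits for striatal markers, whereas most other genes of these cell types did not reach an unadjusted p under 0.05. Kdr (chr5:75932827-75978458), the main endothelial receptor of the growth factor VEGF, was higher in stressed mice and had 428 at the lowest, 594 at the median and 789.7 at the highest in non-stressed libraries, against 707, 911 and 953 in stressed libraries. The groups overlapped through stressed library 4 at 707 and non-stressed libraries 3 and 5 at 789.7 and 725. The log2 fold change was 0.59 ± 0.17, 0.80 ± 0.22 with the covariate and 0.64 ± 0.25 without the striatal-high libraries. Pcdh12, an endothelial protocadherin, had 1.03 ± 0.34 and 1.58 ± 0.42, with 13.6 to 35.1 reads in non-stressed and 32.3 to 59.7 in stressed libraries. Over the 14 endothelial genes tested, 2 were higher at an unadjusted p under 0.05 (Kdr and the receptor gene Flt1) and 0 lower, where 3.22% and 2.5% of all genes were, and the median of 0.16 was 0.18 with the covariate. For Flt1 the values were 0.26 ± 0.12 and 0.28 ± 0.16, and the endothelial gene Vwf had the opposite sign, at -0.48 ± 0.25.

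Lyve1 (chr7:110850607-110863239), a hyaluronan receptor of lymphatic endothelium and of border-associated macrophages, was lower in stressed mice and had 16.1 at the lowest, 40.6 at the median and 65.5 at the highest in non-stressed libraries, against 10.2, 16.2 and 20.2 in stressed libraries. Non-stressed library 5 at 16.1 was the only one within the stressed range. The log2 fold change was -1.23 ± 0.32, -1.42 ± 0.43 with the covariate and -1.41 ± 0.51 without the striatal-high libraries. The other macrophage markers did not all share this: F13a1 had -0.35 ± 0.24, the list member Cd4 was higher, as given below, and the 8 genes of the list had a median of -0.22. Fmo2 (chr1:162874317-162898726), a flavin-containing monooxygenase, had 82.6 at the lowest, 127 at the median and 213 at the highest in non-stressed libraries, against 4.26, 54.3 and 61.3 in stressed libraries, with stressed library 5 far below the rest at 4.26. The groups did not overlap, and the log2 fold change was -1.83 ± 0.63, -2.79 ± 0.80 with the covariate. Lum, a proteoglycan of meningeal fibroblasts, had -1.18 ± 0.48 and -1.34 ± 0.66. Stressed library 5 was lowest there too, at 17.9 reads against 43.3 to 267 in non-stressed ones. Of the 16 meningeal fibroblast genes tested, 12 were higher and 4 lower in stressed mice, where 6420 and 8642 of all 15062 genes were. Their median was 0.09, and the list member Fmod had 0.50 ± 0.48.

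Eva1a, which takes part in autophagy, had -0.42 ± 0.13 and -0.51 ± 0.17, with 385 to 518 reads in non-stressed and 269.5 to 389.9 in stressed libraries, overlapping at a single library of each group. Isg15, a ubiquitin-like protein induced by interferon, had 55.6 at the lowest, 62.3 at the median and 93.1 at the highest in non-stressed libraries, against 68.6, 92.2 and 134 in stressed libraries, with stressed libraries 5 and 6 the highest. Its log2 fold change was 0.42 ± 0.20 and 0.79 ± 0.24 with the covariate, while the 25 interferon response genes had a median of 0.08. Nes, the intermediate filament gene nestin, had 0.44 ± 0.17 and 0.67 ± 0.22.

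Of the 22 genes that met both striatal checks, 11 lie outside the rule for named genes; Pcdh12 above and those that follow were named after their values were seen. Alox12, a lipoxygenase of arachidonic acid, had 8.66 to 27.5 reads in non-stressed and 31.0 to 47.6 in stressed libraries, with no overlap, and log2 fold changes of 1.23 ± 0.26 and 1.31 ± 0.36. Polr1b, a subunit of RNA polymerase I, had 533 to 686 and 721 to 1056 reads, again with no overlap, and log2 fold changes of 0.40 ± 0.12 and 0.34 ± 0.16. Gabrr2, a subunit of GABA receptors, was lower without overlap, at 23.97 to 38.9 reads in stressed against 40.2 to 75.8 in non-stressed libraries. Its log2 fold changes were -0.86 ± 0.26 and -1.01 ± 0.35. Stressed library 5 held the extreme value of its group for Calm2, which encodes calmodulin, at 17485 reads against 39451 to 51597 in the other 5 stressed libraries, for Sri, which encodes the calcium-binding protein sorcin, at 1076, and for the amino acid transporter gene Slc7a1, at 2827.

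The 8 genes of smallest p among those higher in stressed mice, at an average log2 CPM not below 1, had smaller differences with the striatal score in the fit. Below that level Alox12, given above, and Gm6787 had a p in the range of these 8 and nearly the same difference with the score, at 1.05 ± 0.25 and 0.99 ± 0.34 for Gm6787, which was named after its values were seen. Cd4, known as the co-receptor of helper T cells, had 7.42 at the lowest, 9.36 at the median and 20.9 at the highest in non-stressed libraries, against 20.5, 554 and 1208 in stressed libraries. Stressed libraries 1 to 4 ranged from 249 to 1208 and libraries 5 and 6 were at 20.5 and 28.6. For Cd4 the log2 fold change was 4.22 ± 0.86 (adjusted p 0.39, limma), and 0.93 ± 0.50 with the covariate. Scn4b, a sodium channel subunit, had 780.3 at the lowest, 1068 at the median and 1333 at the highest in non-stressed libraries, against 1009.8, 10346 and 24697 in stressed libraries, and 2.56 ± 0.62 became 0.19 ± 0.34. Casq2, the calcium store protein calsequestrin, had 28.9 at the lowest, 68.8 at the median and 94.9 at the highest in non-stressed libraries, against 102, 175 and 201 in stressed libraries. The groups did not overlap: libraries 1 to 4 were highest, and libraries 5 and 6, at 102 and 104, still lay above every non-stressed library. The difference of 1.22 ± 0.26 on the log2 scale became 0.64 ± 0.29 with the covariate. Sgpp2, a phosphatase of sphingosine-1-phosphate, likewise did not overlap, with 186 to 366 and 372 to 1312 reads, and 1.18 ± 0.26 became 0.41 ± 0.25. The log2 fold changes of Mtcl1, Agpat9, Prima1 and Tbc1d8, between 0.86 and 1.30, became 0.28, 0.21, 0.36 and 0.07.

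Of 23 striatal genes tested, 21 were higher at an unadjusted p under 0.05, which describes the libraries that carry the score. Their median log2 fold change of 2.21 was 1.48 without libraries 2 and 3. Drd1, Drd2 and Rgs9 make up the score, so their values with it are near 0 by construction. The 20 other genes of the list had a median of 2.06, with 18 higher at that p (3.22% of all genes), and medians of -0.15 with the covariate and -0.14 without the striatal-high libraries. The serotonin receptor gene Htr1d went from 2.95 ± 0.76 to 0.06 ± 0.45. Cholinergic genes had a median of 1.63 over 9 genes, which became -0.56. Chat, the enzyme that makes acetylcholine, had 193, 667, 203 and 425 reads in stressed libraries 1 to 4 and 8.52 and 5.05 in libraries 5 and 6. In non-stressed libraries it ran up to 77.8, in library 3, so the groups overlapped, and 3.71 ± 1.33 became -0.65 ± 1.15. Its neighbour Slc18a3, the vesicular acetylcholine transporter, lies within the Chat gene, so counting could have split their reads, and went from 3.53 ± 1.16 to -0.17 ± 1.04. Hypothalamic genes had a median of 1.48 over 7 genes, and -0.74 with the covariate. Of these, Baiap3 had 8452 and 8604 reads in stressed libraries 2 and 4 against at most 953 in the other 10, and the peptide gene Cartpt went from 2.00 ± 0.77 to -0.09 ± 0.80.

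Genes of hippocampal neurons were lower in stressed mice, and stressed libraries 2 and 3 carried much of that difference. The median log2 fold change was -0.98 over 16 dentate genes, -0.64 over 11 CA1 genes and -0.59 over 11 CA3 genes. With the covariate these medians were -0.36, -0.19 and 0.04, and without libraries 2 and 3 they were -0.47, -0.40 and -0.22. Without the striatal-high libraries they were -0.57, -0.11 and -0.01. In list scores, every stressed library but 6 lay below the non-stressed CA1 range of 0.28 to 0.49. Stressed library 5 also lay below the non-stressed CA3 range, at -0.67 against -0.24 or more. In the dentate list it was at -0.71 against -0.38 or more. Libraries 1, 4 and 6 lay inside the CA3 and dentate ranges. Il16, a dentate marker in this list, had 1476 at the lowest, 1979 at the median and 3024 at the highest in non-stressed libraries, against 153, 1042 and 2418 in stressed libraries, and its -1.49 ± 0.51 became 0.14 ± 0.46 with the covariate and -0.41 ± 0.27 without libraries 2 and 3. For Dsp -2.22 ± 0.80 became -0.31 ± 0.90 and for Prox1 -1.39 ± 0.44 became -0.41 ± 0.51. The CA1 marker Nov, a matricellular protein, had -0.74 ± 0.22, -0.41 ± 0.28 with the covariate and -0.78 ± 0.24 without the striatal-high libraries, and stressed library 5 at 1349 was as low as libraries 2 and 4. For Dcn, a proteoglycan, and the signalling gene Lefty1 the values were -1.07 ± 0.37 and -1.88 ± 0.69, then -0.50 ± 0.47 and -0.02 ± 0.72 with the covariate. In the CA3 list, Grik4, a kainate receptor subunit, went from -0.69 ± 0.28 to 0.10 ± 0.28, and Iyd from -1.89 ± 0.76 to 0.18 ± 0.80. The CA3 list gene Col6a1, a collagen, was higher, at 1.33 ± 0.49 and 0.47 ± 0.61.

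Hsd11b1, the enzyme that regenerates active corticosterone inside cells, had 1173 at the lowest, 1432 at the median and 2335 at the highest in non-stressed libraries, against 263, 807 and 1566 in stressed libraries. Stressed library 2 was lowest at 263, and libraries 5 and 6 were inside the non-stressed range. On the log2 scale its difference of -0.95 ± 0.29 became -0.12 ± 0.28 with the covariate. The growth factor gene Ntf3 and the neuropeptide Y receptor gene Npy2r went from -1.50 ± 0.51 and -1.54 ± 0.56 to -0.13 ± 0.53 and -0.63 ± 0.71. Among the genes of smallest p that were lower, the potassium channel gene Kcnn2 went from -0.74 ± 0.19 to -0.21 ± 0.18 and the heat shock protein gene Hspa2 from -0.73 ± 0.18 to -0.18 ± 0.18. Palmd, Mis18a, Smim3 and Nde1 had -0.66, -0.53, -0.88 and -0.37, and -0.23, -0.22, -0.39 and -0.15 with the covariate.

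Immediate early genes, which neurons switch on within minutes of activity, were mixed. Fos had 96.5 at the lowest, 107 at the median and 181 at the highest in non-stressed libraries, against 150.4, 199.96 and 456 in stressed libraries. Stressed libraries 1 and 2 were highest, and stressed library 4 at 150.4 was below non-stressed library 4 at 181. Its log2 fold change was 1.02 ± 0.38, 0.78 ± 0.52 with the covariate and 0.73 ± 0.56 without the striatal-high libraries. Egr2 had 1.36 ± 0.47 and 0.90 ± 0.62, with its highest reads in stressed libraries 1 and 2 at 124 and 137. Ptgs2, the inducible cyclooxygenase, was lower at -1.22 ± 0.46, and -0.06 ± 0.50 with the covariate. In the list of 27 genes an unadjusted p under 0.05 was reached by 3 higher and 3 lower ones, where 3.22% and 2.5% of all genes did so, and the median of -0.13 became 0.18 with the covariate.

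Some genes had small differences over all libraries and larger ones with the covariate. Etnppl, an astrocyte enzyme of lipid breakdown, had 718 at the lowest, 1218 at the median and 1363 at the highest in non-stressed libraries, against 272, 790.2 and 1886 in stressed libraries, with 1886 and 1855 in stressed libraries 2 and 4 and 272 and 595 in libraries 5 and 6. For Etnppl the log2 fold change was -0.42 ± 0.40, and -1.55 ± 0.41 with the covariate. Acer2, a ceramidase, went from -0.21 ± 0.21 to -0.70 ± 0.24 and Ciart, a repressor of the circadian clock, from -0.21 ± 0.26 to -0.80 ± 0.29. Fosl2, a transcription factor of the AP-1 family, went the other way, from -0.17 ± 0.23 to 0.62 ± 0.19, with 2427 and 1904 reads in libraries 5 and 6 and at most 1265 in libraries 1 to 4. Car15, Layn, 4933432I09Rik and Rnf112 had 0.03, 0.18, 0.01 and -0.25, and 0.51, 0.57, 0.76 and 0.47 with the covariate. Stressed library 5 was the highest of its group in Car15, 4933432I09Rik and Rnf112, at 451, 141 and 32922 reads. In Layn library 6 was, at 186. The highest Rnf112 value of all was 36683, in non-stressed library 4. None of the genes named here passed the adjusted threshold in the fit with the covariate.

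Medians of the other gene lists lay on both sides of that of all genes, -0.04. Dopamine and serotonin receptor genes, which include Drd1 and Drd2, had a median of 0.28, thalamic genes 0.22, and genes of neurotrophins and stress peptides -0.23, and with the covariate these were -0.0042, -0.12 and -0.08. Potassium channel genes had 6 of 32 higher and 2 lower at an unadjusted p under 0.05, where 3.22% and 2.5% of all genes were, and 0 and 0 with the covariate, and their median was 0.06. Kcnj10, the astrocyte channel Kir4.1, was higher at 0.41 ± 0.12, and 0.27 ± 0.16 with the covariate, and Kcnh1 had 0.47 ± 0.14 and 0.26 ± 0.18. Of 25 cholesterol synthesis genes 3 were higher and 0 lower at that p, where 3.22% and 2.5% of all genes were. With the covariate 0 and 0 were, and their median of 0.09 became 0.03. Among the higher ones, the enzyme gene Acat2 went from 0.36 ± 0.17 to 0.10 ± 0.22 with the covariate. The enzyme gene Sqle went from 0.19 ± 0.09 to 0.18 ± 0.13. Oligodendrocyte and microglia lists of 14 genes each had medians of -0.07 and -0.16, and the astrocyte list, whose scores separated the groups, had -0.15; no member of the 3 was at an unadjusted p under 0.05. The 22 proton pump and lysosome genes had none either and a median of -0.05. Atp4a, which encodes the pump subunit that esomeprazole blocks, had 19.0 at the lowest, 30.1 at the median and 76.1 at the highest in non-stressed libraries, against 20.2, 33.8 and 48.6 in stressed libraries, and a log2 fold change of 0.01 ± 0.32. The clock gene Per1, also a target of the glucocorticoid receptor, had -0.14 ± 0.24, with non-stressed library 4 far above the rest at 6682.

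**Figure D4:**
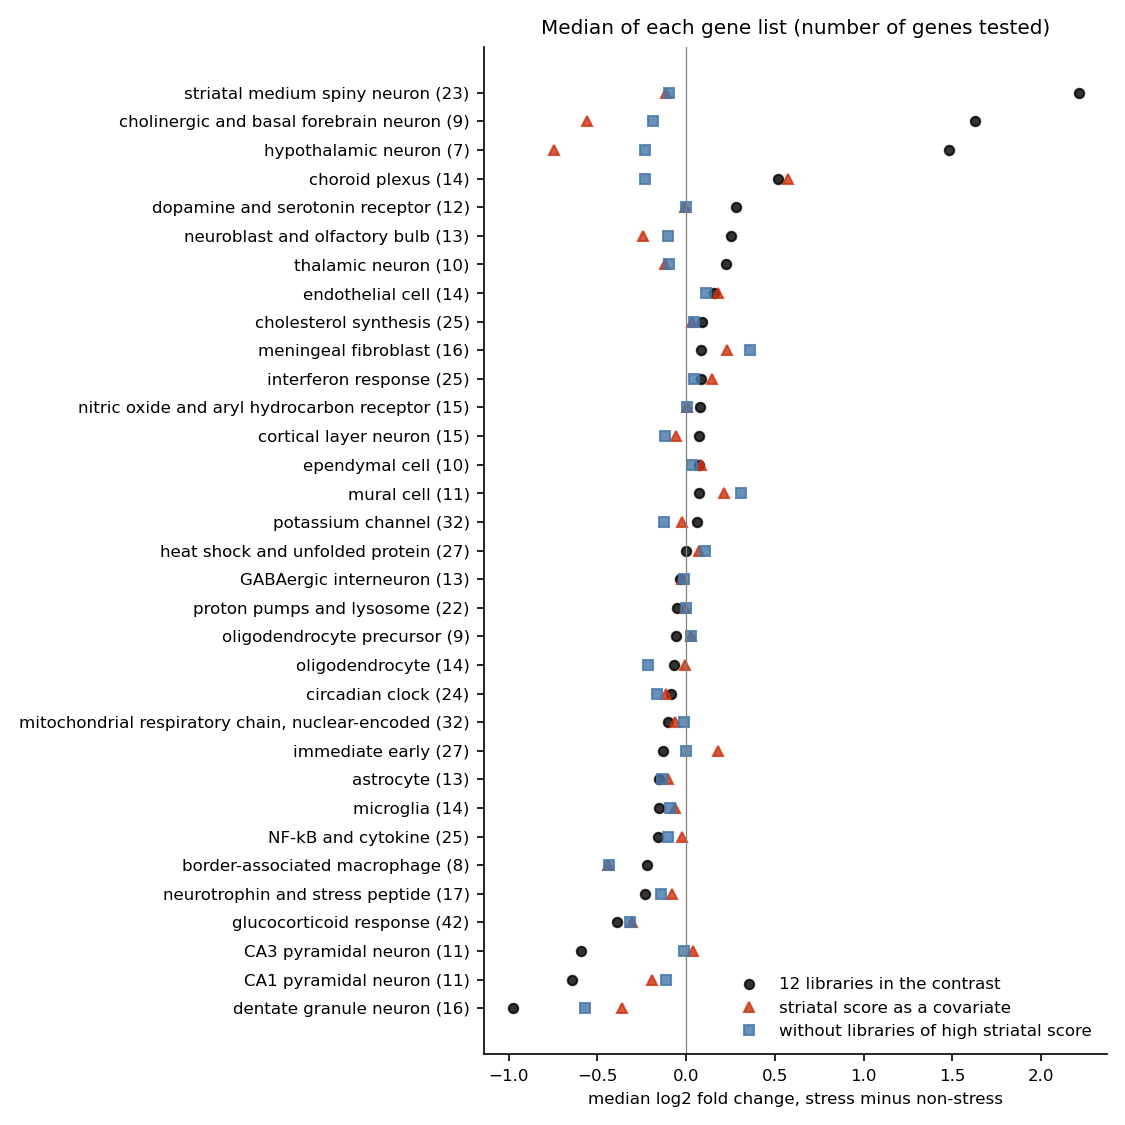
Median log2 fold change of stressed minus non-stressed libraries for 33 gene lists with at least 5 genes tested, over all libraries (black circles), with the striatal score as a covariate (red triangles) and without the libraries of high striatal score (blue squares). The striatal list, which holds the 3 genes of the score, moves from 2.21 to about 0, while the glucocorticoid list lies at -0.39, -0.31 and -0.32.

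The same contrast in vehicle-treated mice shares no library with this one and called no gene, with 82 of 15062 (0.544%) at an unadjusted p under 0.05. Its log2 fold changes were -1.75 ± 0.43 for Plin4, -0.83 ± 0.25 for Map3k6, -0.41 ± 0.17 for Tsc22d3, -0.42 ± 0.16 for Sgk1, -1.29 ± 0.32 for Lyve1 and -1.16 ± 0.38 for Lao1. For Fkbp5 it was -0.44 ± 0.19, and -0.39 ± 0.11 without the 1 stressed vehicle library of high striatal score, and for Fos it was 0.95 ± 0.38. The glucocorticoid list had a median of -0.26 there, with an unadjusted p under 0.05 reached by 8 of 42 genes that were lower and by 0 that were higher, against 0.285% and 0.259% of all genes. For Kdr, Alox12 and Casq2 the vehicle values were 0.27 ± 0.17, 0.25 ± 0.26 and 0.68 ± 0.26. The test of the difference between drug arms called 0 genes, with 57 (0.378%) at an unadjusted p under 0.05, so no difference was shown to be particular to esomeprazole. The interaction was -0.20 ± 0.61 for Plin4, -0.19 ± 0.27 for Fkbp5, -0.85 ± 0.54 for Lao1 and 0.33 ± 0.24 for Kdr. In the frontal cortex of mice with the same treatments, 71 of 15040 genes (0.472%) were at an unadjusted p under 0.05 and 0 were called. The values there were -1.73 ± 0.43 for Plin4, -2.02 ± 0.75 for Lao1, -0.82 ± 0.27 for Map3k6, -0.54 ± 0.19 for Tsc22d3 and -0.76 ± 0.21 for Galnt15. They were 0.69 ± 0.16 for Kdr, 0.71 ± 0.18 for Casq2, -0.34 ± 0.21 for Fkbp5 and 0.23 ± 0.67 for Drd2. The difference between the tissues was not tested.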

How the data were processed

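Poly(A) RNA was made into stranded TruSeq libraries and sequenced from both ends, 151 bases each, per the labels. STAR, HTSeq, DESeq2 and mm10 are named without versions in the submitters' processing notes, and the settings are not given in the sources used here. The deposited values are a signal, the read count of a gene times a single factor per library: in every library 100% of values came out whole, within 0.02. The authors' 4 rows of unassigned reads were left out of library sizes. Of 15304 gene names, 24 had turned into dates and 1 was repeated. No column of another sample was present.

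Recovered reads of the 24 hippocampal libraries were scaled by TMM (edgeR 4.0.16), and 15062 genes passing filterByExpr (minimum count 10) were tested with limma 3.58.1 (trend) on log2(value + 1), with 1 mean per group and Benjamini-Hochberg adjustment, in R 4.3.3. The threshold was an adjusted p under 0.05. Counts of reads went only to edgeR and DESeq2 1.42.0, as alternatives. All reads per library were 39.01 to 54.1 M, and the 95% Wilson interval of a no-feature share reached 0.013 percentage points either way, which covers counting error only. The alternatives were median-of-ratios and deposited scaling, no low-count filter, a pseudocount of 5, edgeR, DESeq2, the replicate number as a block, only these 12 libraries, the striatal score or the no-feature share as a covariate, leaving out striatal-high libraries or those with a no-feature share under 12%, 2 surrogate variables (sva 3.50.0), and each of the 12 libraries left out. The striatal score with the no-feature share, and leaving out stressed libraries 2 and 3 (mean of Prox1, Dsp and Il16 over 2 log2 units below its mean), were added after seeing the data.

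The comparison, the 34 gene lists (21 of cell types, 591 genes) and the tests were chosen with earlier results of these data known. Named genes were the 8 of smallest p in each direction, at an average log2 CPM not below 1, in the main fit and in the fit with the striatal score; the 3 top members, by p, of each list with at least 2 members at an unadjusted p under 0.05; and 13 panel genes (Fkbp5, Sgk1, Tsc22d3, Per1, Plin4, Map3k6, Lao1, Fos, Nr3c1, Drd1, Drd2, Rgs9 and Atp4a), 83 in all, of which 1 is not reported here. Positions are from GENCODE vM21 (80 genes). The erythrocyte list had 1 gene tested. The limma step was tested on simulated data. Figures were drawn with matplotlib 3.10.9 in Python 3.11.15, with numpy 2.4.6 and pandas 2.3.3.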

Additional observations from a re-analysis of the deposited data

Results flagged for a closer look

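For 168 groups of 6 values (the named genes on the log2 scale, the no-feature share and the gene reads, in both groups), the gap of the highest or lowest library to its nearest neighbour was set against the group's range. It exceeded Dixon's critical value in 20, where chance gives about 1 in 20 groups. Non-stressed library 4 was the outlying one in 11 of them and stressed library 5 in 4, and these are the 2 libraries with a no-feature share under 12%; their part in these values was not tested. The no-feature share of non-stressed library 4 was itself among them, at 6.116%.

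Non-stressed library 4 was the highest of its group in Fos at 181.0 normalised reads, Lefty1 at 1410, Grik4 at 4208, Nfkbia at 1564 and Per1 at 6682. It was the lowest in Casq2 at 28.86, Dsp at 927.5, Rsad2 at 11.81, Npy2r at 945.8 and Nr3c1 at 436.8. Stressed library 5 was the lowest of its group in Fmo2 at 4.261, Rsad2 at 36.64 and Nr3c1 at 220.7, and the highest in Nfkbia at 1002. Of the other values, Fkbp5 was highest in non-stressed library 1 at 4141, Oasl2 in non-stressed library 3 at 172.7, Kcnh1 in stressed library 3 at 5272 and Dcn in stressed library 6 at 1174. Kdr was lowest in stressed library 4 at 706.8, still above 4 of the 6 non-stressed libraries.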

How the results depend on the processing

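Of the alternatives tried, 3 called genes where limma called 0: DESeq2 called 68, 2 surrogate variables 996, and the fits that left out 1 library each 0 to 1, the 1, Cd4, without stressed library 5. The count at an unadjusted p under 0.05, 861, became 129 with the striatal score, 256 without the striatal-high libraries, 219 without stressed libraries 2 and 3, 2715 with the no-feature share, 2571 without libraries of low no-feature share, 3879 with 2 surrogate variables, 1249 with both covariates, 628 with only these 12 libraries, and 467 to 1190 with 1 library left out, the lowest without stressed library 2. The calls of DESeq2 and of the surrogate variables rest on these choices, and the cause was not tested. The interaction called 0 genes in every fit. The median over all genes was -0.04, and -0.08 with both median-of-ratios and deposited scaling. With DESeq2, which differs in its model as well, it was -0.11, the largest shift of any alternative.

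Nothing in the labels says that a replicate number marks a shared animal, litter or day. Correlations of same-numbered libraries, as deviations from their group means, ran from -0.54 to 0.44 and none matched its own number best. They were taken over all genes, uneven striatal and dentate markers included, so they cannot decide whether the numbers pair the libraries. With the number as a block, 0 genes were called and 909 were at an unadjusted p under 0.05.

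Over the 82 named genes reported 2057 values kept direction and side, 72 passed an adjusted threshold they had missed and 83 turned sign; of list medians 850 stayed within the spread and 68 moved. With the striatal score the sign turned for Fosl2 (0.62), Rnf112 (0.47), Drd1 (-0.073), Iyd (0.18), Grik4 (0.10), Il16 (0.14), Rspo1 (-0.082), Cux1 (-0.082), Fezf2 (0.36), Cartpt (-0.090), Nkx2-1 (-0.30), Baiap3 (-0.068), Lhx8 (-0.38), Slc18a3 (-0.17), Chat (-0.65), Sp9 (-0.12), Dlx5 (-0.42), Rgs9 (-0.20) and Atp4a (-0.27). With the no-feature share added it turned for the same genes, at 0.60, 0.46, -0.010, 0.21, 0.055, 0.11, -0.16, -0.10, 0.32, -0.22, -0.40, -0.13, -0.43, -0.24, -0.65, -0.17, -0.51, -0.15 and -0.33 in that order, and for Ptgs2 (0.015). Without the striatal-high libraries it turned for Fosl2 (0.52), Rnf112 (0.27), Iyd (0.074), Grik4 (0.087), Il16 (0.076), Cux1 (-0.041), Fezf2 (0.17), Sp9 (-0.052), Dlx5 (-0.16), Rgs9 (-0.083) and Atp4a (-0.10), and without stressed libraries 2 and 3 for Fosl2 (0.11), Rnf112 (0.036) and Atp4a (-0.0089).

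Values near 0 also turned for Car15, 4933432I09Rik and Atp4a: -0.0069, -0.031 and -0.026 with median-of-ratios, -0.0083, -0.032 and -0.028 with deposited scaling, and -0.033, -0.086 and -0.025 with surrogate variables. Atp4a was -0.10 with edgeR and -0.15 with DESeq2, and 4933432I09Rik -0.0017 with only 12 libraries. Without libraries of low no-feature share Car15 was -0.058, 4933432I09Rik -0.11 and Acer2 0.019. With 1 library left out in turn Car15 ran from -0.091 to 0.18, 4933432I09Rik from -0.13 to 0.25, Atp4a from -0.13 to 0.26, Per1 from -0.24 to 0.051 (the latter without non-stressed library 4) and Nr3c1 from -0.66 to 0.35 (the latter without stressed library 5).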

Other observations

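The cortical layer list and the list of neuroblasts and olfactory bulb held members at an unadjusted p under 0.05 whose difference shrank or turned with the striatal score. Of 15 cortical layer genes 3 were higher and 1 lower, where 3.22% and 2.5% of all genes were, and the median was 0.07. Cux1, a transcription factor of upper cortical layers, had 1594 to 1939.6 normalised reads in non-stressed libraries and 5509 in stressed library 3, the highest, and its log2 fold change of 0.61 ± 0.23 became -0.08 ± 0.22. Rspo1, an activator of Wnt signalling, was also highest in stressed library 3, at 652 reads, and went from 1.61 ± 0.61 to -0.08 ± 0.62. Fezf2, a transcription factor of deep cortical layers, was lowest in stressed library 2 at 143 reads and went from -0.85 ± 0.38 to 0.36 ± 0.34. Among 13 genes of neuroblasts and olfactory bulb, with a median of 0.25, 2 were higher and 0 lower at that p, Sp8 and Sp9. These and Dlx5, which did not reach that p, are transcription factor genes. Sp8, Sp9 and Dlx5 were highest in stressed library 2, at 234, 332 and 417 reads. Their log2 fold changes of 0.95 ± 0.46, 0.74 ± 0.34 and 0.92 ± 0.46 became 0.16 ± 0.57, -0.12 ± 0.36 and -0.42 ± 0.46.

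Lists of the vessel wall and the meninges had small medians, 0.07 over 11 mural genes and 0.09 over 16 meningeal fibroblast genes, and 0.21 and 0.23 with the covariate. Vwf, the endothelial clotting protein, had -0.48 ± 0.25 and was highest in non-stressed library 4 at 2450.5 reads. Lcn2, an iron-carrier-binding protein released in inflammation, ran from 4.95 to 1219 reads in non-stressed libraries, with the highest in library 4, and from 4.29 to 16.2 in stressed ones. Its log2 fold change was -3.04 ± 1.03, and -2.07 ± 1.38 with the covariate.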
